A study of Homo sapiens with 4 samples.

Results

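The RNA of 83 genes for heterotrimeric G proteins, their regulators and a group of receptors that signal through them was compared between U937-AE and U937-Mt cells. U937 is a human myelomonocytic cell line. U937-AE is 1 clone transfected with HA-tagged AML1/ETO, the fusion made by the t(8;21) translocation of acute myeloid leukemia, and U937-Mt is a bulk population that carries the empty pSGMtNeo vector. In both the mouse metallothionein promoter of the vector responds to zinc, and both were given 100 µM ZnSO4 for 8 hours, so that zinc itself is shared. For each line RNA from 3 extractions was mixed into 1 pool, and each labeled pool was placed on 2 array copies (Affymetrix HG-U133 Plus 2.0). Each line is therefore 1 replicate, the ranges given with each value cover hybridization error only, and no p-value is given for a difference between the lines. An effect of AML1/ETO and a property of the clone cannot be told apart, and neither can fewer cells of a kind and less RNA per cell.

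Members were chosen by symbol. They are the Gα, Gβ and Gγ subunits, the RGS proteins with a number, the receptor kinases GRK1 to GRK7, the β-arrestins, the protease-activated receptors, the P2RY receptors, the ADGRE receptors, the formyl peptide receptors, and the C3a and C5a receptors. The rule found 83 of the 19775 genes of the table, measured by 205 probe sets. Another 6 genes of these families had no probe set with a single gene symbol and were not analysed here. Of the β-arrestins only ARRB1 was measured, and of the protease-activated receptors only F2R, F2RL2 and F2RL3. A receptor of this class, when bound or cleaved by its ligand, makes the Gα subunit exchange GDP for GTP, and Gα and the Gβγ dimer then act on separate effectors. RGS proteins speed up GTP hydrolysis by Gα and so end the signal, while GRKs phosphorylate the active receptor and arrestins then bind it. In myeloid cells these pathways serve chemotaxis, adhesion and the response to thrombin, complement and bacterial peptides.

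A gene was read from its brightest probe set. Signals below the median of an array were raised to that median, which is called the floor (119.5 and 129.7 for U937-AE, 146.8 and 153.6 for U937-Mt). Each U937-AE array was set against each U937-Mt array, and a gene was called higher or lower when these 4 comparisons all passed 1.5-fold in the same direction. Called genes therefore cannot overlap between the lines. For genes not called, the share of all genes without overlap was not computed, so a lack of overlap is a description only. Of the 83 members 38 were above the floor on all arrays, 15 on some and 30 on none. A gene below the floor everywhere has a log2 difference of -0.27 by construction, because the floors are 1.21-fold higher in U937-Mt. RUNX1T1, which encodes the ETO part of the fusion, checks the labels: 1 of its 7 probe sets gave 1361.5 and 1299.0 in U937-AE, compared with 8.6 and 7.6 in U937-Mt. With the floor holding the size down, this was 8.86-fold higher on the mean of the 4 comparisons (8.46 to 9.27). The others were not called.

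In U937-AE 2 members were called higher, F2R and GRK5, and 8 were called lower, namely ADGRE2, RGS14, RGS3, GRK2, RGS2, RGS16, GNA15 and RGS18. These are 2.41% and 9.64% of the members, while 1.7% of all genes were called higher and 4% lower. Among genes whose mean signal over the 4 arrays was above the mean floor, here called bright, 47 members gave the same 2 and 8 calls (4.26% and 17%), beside 2.71% and 6.17% of 12052 genes. ADGRE2 is bright through U937-Mt alone. Among the other bright members ADGRE1, FPR2, GNAZ, P2RY10 and RGS8 passed the floor on 1 U937-AE array only, and F2R, GNA11 and GNB3 on 1 U937-Mt array only. These shares and the median of the bright members are therefore a description. The median log2 difference of the bright members was -0.23 and that of all bright genes -0.08. The other 73 members were not called.

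The number of members on each side depended on the scaling of the arrays. On the signals as deposited the split was 2 higher and 8 lower, after quantile normalization 4 and 8, with the arrays set to the same median 6 and 2, and with the arrays set to their hybridization spike-ins 8 and 2. The median log2 difference of all bright genes moved with it, from -0.08 to -0.03 (quantile), 0.19 (same median) and 0.26 (spike-ins). Calls over all genes shifted as well. They were 336 higher and 791 lower as deposited, 373 and 611 (quantile), 911 and 387 (same median), and 1374 and 312 (spike-ins). A shift of the split with the scaling is therefore not particular to the members. F2R, GRK5, ADGRE2 and RGS14 kept their calls under all of these scalings. GNA15, GRK2, RGS2, RGS3, RGS16 and RGS18 lost theirs under the last 2. Relative to the median of all bright genes, which a shift of whole arrays hardly alters, their log2 differences lay between -1.02 and -0.80 on the deposited signals, and after quantile normalization they lay between -1.08 and -0.70.

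**Figure D1:**
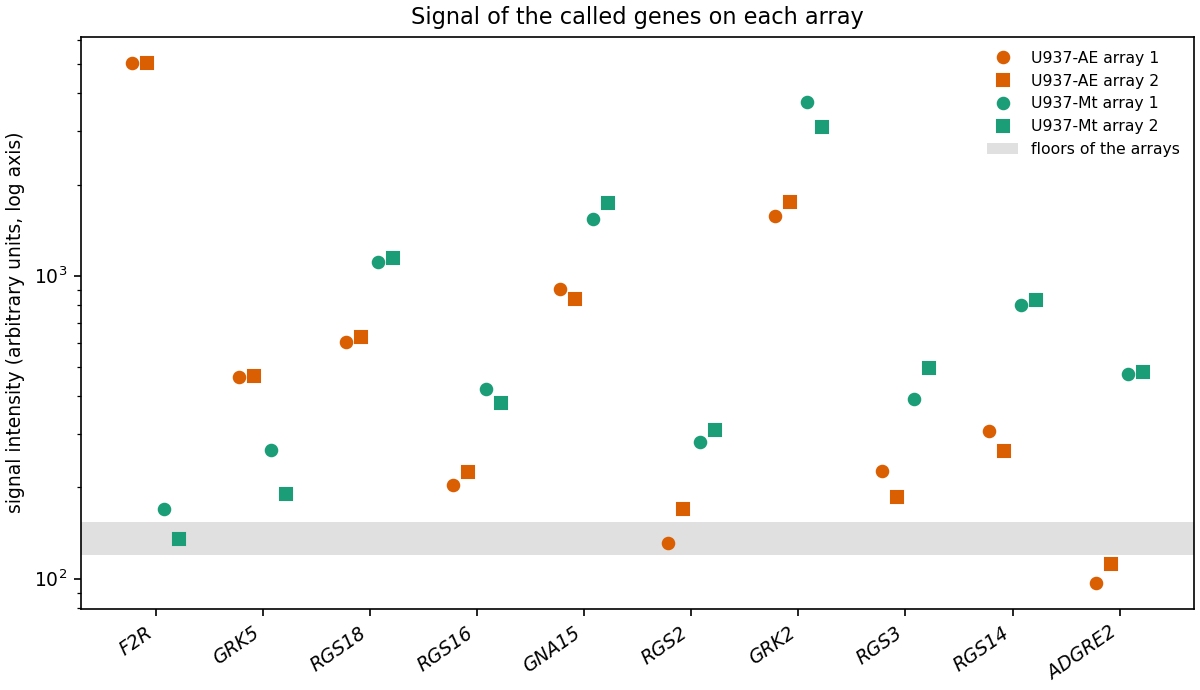
Signal intensity on a log axis (arbitrary units) of the 10 called members on each of the 4 arrays, with the range of the array floors as a grey band. By the call rule the U937-AE and U937-Mt signals cannot overlap for any of the 10 genes, and F2R spans from 135.1 to 5046.4.

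The receptors were led by F2R, which encodes the thrombin receptor PAR1, a receptor that is switched on when a protease cuts its extracellular end. Its brightest probe set, of the suffix _x_at, gave 5046.4 and 5035.9 in U937-AE, compared with 169.6 and 135.1 in U937-Mt. The copies of each pool lay close together, and the second U937-Mt array was below its floor. The difference was 31.2-fold (29.7 to 32.9 over the 4 comparisons; log2 4.97). That value is held down by the floor on the second U937-Mt array, and without a floor the log2 difference was 5.06. With the floor at the median none of the 19775 genes had a larger positive log2 difference than F2R, under the reported or the 3 other scalings. With the floor at the 25th percentile 1 gene lay above it. With no floor, with the floor at the 75th percentile and with the mean over the probe sets of each gene, 3 genes lay above it in each case, and 92 did when _x_at and _s_at probe sets were left out. The suffix _x_at marks a probe set whose probes may also match other transcripts. A second F2R probe set gave 498.0 and 495.1 in U937-AE, compared with 338.9 and 38.7 in U937-Mt. Its log2 difference was 1.12 (0.55 to 1.70), it was not called on the deposited signals because the first U937-Mt array was too bright, and it was called higher under each of the 3 other scalings. The size of the F2R difference, but not its direction, thus depended on the probe set.

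The 2 other protease-activated receptors measured were at or near the floor. F2RL2, which encodes PAR3, gave 8.5 and 30.0 in U937-AE, compared with 96.1 and 128.9 in U937-Mt, all below the floor. F2RL3, which encodes the thrombin receptor PAR4, gave 91.8 and 129.9 against 81.4 and 121.8, with 1 U937-AE array just above the floor. F2RL2 and F2R are neighbours on chromosome 5 in the RefSeq gene order.

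ADGRE2, an adhesion receptor of myeloid cells with EGF-like repeats, gave 97.1 and 111.8 in U937-AE, compared with 473.3 and 479.5 in U937-Mt. Both U937-AE arrays were below the floor and both U937-Mt arrays well above it. On the mean of the 4 comparisons ADGRE2 was 3.83-fold lower in U937-AE (3.65 to 4.01), a size that the floor holds down. A second probe set was also called lower (100.5 and 58.6 against 242.0 and 275.4; log2 difference -1.05). ADGRE5, which encodes the adhesion receptor CD97, gave 945.6 and 883.1 against 1390.5 and 1284.6. Its lines did not overlap, but its log2 difference of -0.55 (-0.66 to -0.44) was not called.

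C3AR1, the receptor for the complement fragment C3a, gave 419.8 and 473.7 in U937-AE, compared with 214.9 and 327.3 in U937-Mt. U937-AE was the brighter on every array, while the U937-Mt copies differed from each other, and the log2 difference of 0.75 (0.36 to 1.14) was not called on the deposited signals. C3AR1 was called higher with the arrays set to the same median or to the spike-ins. P2RY8, a receptor known to couple to Gα13 in B cells, gave 1404.6 and 1533.0 against 2179.2 and 2116.3 (log2 difference -0.55, not called). FPR2, a formyl peptide receptor, gave 145.5 and 116.6 against 163.0 and 215.7 with signals on both sides of the floor in U937-AE (log2 difference -0.45, not called). Of all 21 receptors 10 were below the floor on every array, among them FPR1, FPR3, C5AR1 and ADGRE3.

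Of the 16 Gα genes 1 was called, GNA15, which encodes the promiscuous Gα of the Gq class found in hematopoietic cells. GNA15 gave 904.5 and 840.6 in U937-AE, compared with 1538.9 and 1742.5 in U937-Mt. It was 1.88-fold lower in U937-AE (1.70 to 2.07). GNA11, its neighbour on chromosome 19 and also of the Gq class, gave 161.8 and 178.9 against 278.3 and 92.7, with U937-AE between the U937-Mt copies.

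The other Gq class genes were not called on the deposited signals. GNAQ, whose product activates phospholipase Cβ, gave 4296.2 and 3856.9 in U937-AE, compared with 3153.7 and 2980.3 in U937-Mt (log2 difference 0.41, 0.29 to 0.53) and was called higher with the spike-ins. Since a ratio between genes on 1 array is free of the scaling of that array, GNAQ was set against GNA15: the log2 ratio was 2.25 and 2.20 in U937-AE but 1.04 and 0.77 in U937-Mt. The ratio was thus higher in U937-AE by 1.32 on the log2 scale (1.16 to 1.47), which shows unequal change and not which gene changed. GNA14, adjacent to GNAQ on chromosome 9, gave 148.1 and 130.7 against 227.7 and 219.0 (log2 difference -0.68, -0.80 to -0.56). It was not called because 1 of the 4 comparisons was under 1.5-fold.

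GNAQ has 5 probe sets, which differed among themselves. The third brightest gave 2198.4 and 2213.2 in U937-AE, compared with 1002.2 and 1248.0 in U937-Mt and was called higher (log2 difference 0.98), and another gave 0.61. The remaining 2, beside the brightest, gave -0.20 and -0.42, 1 of them with the suffix _x_at. The direction of GNAQ on the deposited signals therefore differed between probe sets.

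Read from their brightest probe sets, none of the Gi class genes was called. GNAI2, the main inhibitor of adenylyl cyclase in leukocytes, gave 3271.2 and 3131.0 in U937-AE, compared with 3626.4 and 3879.5 in U937-Mt (log2 difference -0.23), and GNAI3 gave 5321.3 and 5722.1 against 5040.7 and 4524.1 (log2 difference 0.21). Neither overlapped between the lines, and the sign for GNAI2 turned with the arrays set to the same median or to the spike-ins. GNAO1, mainly a neuronal Gα, gave 1039.7 and 799.7 against 1525.5 and 831.7, with overlapping lines. GNAZ gave 101.6 and 178.5 against 163.3 and 175.3, again overlapping. A dimmer GNAO1 probe set was called lower on the deposited signals (log2 difference -0.71) but under none of the 3 other scalings. The remaining measured GNAO1 probe set gave -0.96, was above the floor on 1 array only and was not called. GNAI1, GNAT1, GNAT2 and GNAT3, and GNAL of the Gs class, were below the floor on every array.

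GNAS, which encodes the Gαs subunit that activates adenylyl cyclase, gave 20332.6 and 23861.5 in U937-AE, compared with 24121.5 and 23074.7 in U937-Mt, and the lines overlapped (log2 difference -0.10). Of its 12 probe sets 10 were above the floor on at least 1 array, with log2 differences from -0.32 to 0.92. Only 1 of them, of the suffix _x_at, was called, with 6065.9 and 4367.6 against 2618.1 and 2841.1 (log2 difference 0.92), and it lost the call after quantile normalization. Another 2 GNAS probe sets, with log2 differences of 0.64 and 0.91, were not called on the deposited signals and were called higher under the 3 other scalings. The GNAS locus makes several transcripts that share exons, and which of them a probe set reads was not analysed here. GNA12 (3215.1 and 3268.3 against 3205.7 and 2903.9) and GNA13 (4677.1 and 5855.2 against 5492.8 and 5456.3) couple receptors to RhoA through guanine nucleotide exchange factors. Their log2 differences were 0.09 and -0.07.

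None of the 6 Gβ and 12 Gγ genes was called on the deposited signals. The Gβ-like gene GNB1L (log2 difference -0.04) was counted among the Gβ genes by its symbol only and enters their median. The bright Gβ genes had a median log2 difference of 0.14 and the 7 bright Gγ genes one of 0.27, and after quantile normalization these were 0.17 and 0.18. The 2 other scalings raise every gene and so cannot turn a positive median. GNB4, a Gβ subunit, gave 5486.1 and 5460.3 in U937-AE, compared with 3540.9 and 4117.6 in U937-Mt (log2 difference 0.52, 0.41 to 0.63). Its lines did not overlap, and it was called higher with the arrays set to the same median or to the spike-ins. Another GNB4 probe set, of the suffix _x_at, was called higher on the deposited signals and under the 3 other scalings, with 746.3 and 577.3 against 153.1 and 268.2 (log2 difference 1.70, 1.11 to 2.29). The remaining GNB4 probe set gave 0.42 (-0.04 to 0.89) and was not called.

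Relative to GNB2, a broadly expressed Gβ gene, the log2 ratio of GNB4 was -0.19 and 0.07 in U937-AE but -0.77 and -0.41 in U937-Mt. GNB2 was set beside GNB4 for this ratio outside the rule for named genes. GNB1 gave 12330.7 and 12121.4 against 10178.0 and 9809.1, with a log2 difference of 0.29 (0.25 to 0.33) that was small but without overlap. GNB3, another Gβ isoform, gave 232.0 and 231.5 against 118.0 and 165.2, with 1 U937-Mt array below the floor. Its log2 difference of 0.57 was not called on the deposited signals and was called higher under the 3 other scalings.

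Among the Gγ genes GNG12 came closest to a call. It gave 1393.4 and 1290.3 in U937-AE, compared with 859.7 and 866.0 in U937-Mt, and its log2 difference of 0.64 (0.58 to 0.70) fell just short because the lowest of the comparisons was 1.49-fold. It was called higher under the 3 other scalings. GNG5 gave 8387.7 and 9488.4 against 7431.7 and 6804.7 (log2 difference 0.33). Of the Gγ genes 5 were below the floor on every array, including GNGT1 and GNGT2, the subunits of the visual system.

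**Figure D2:**
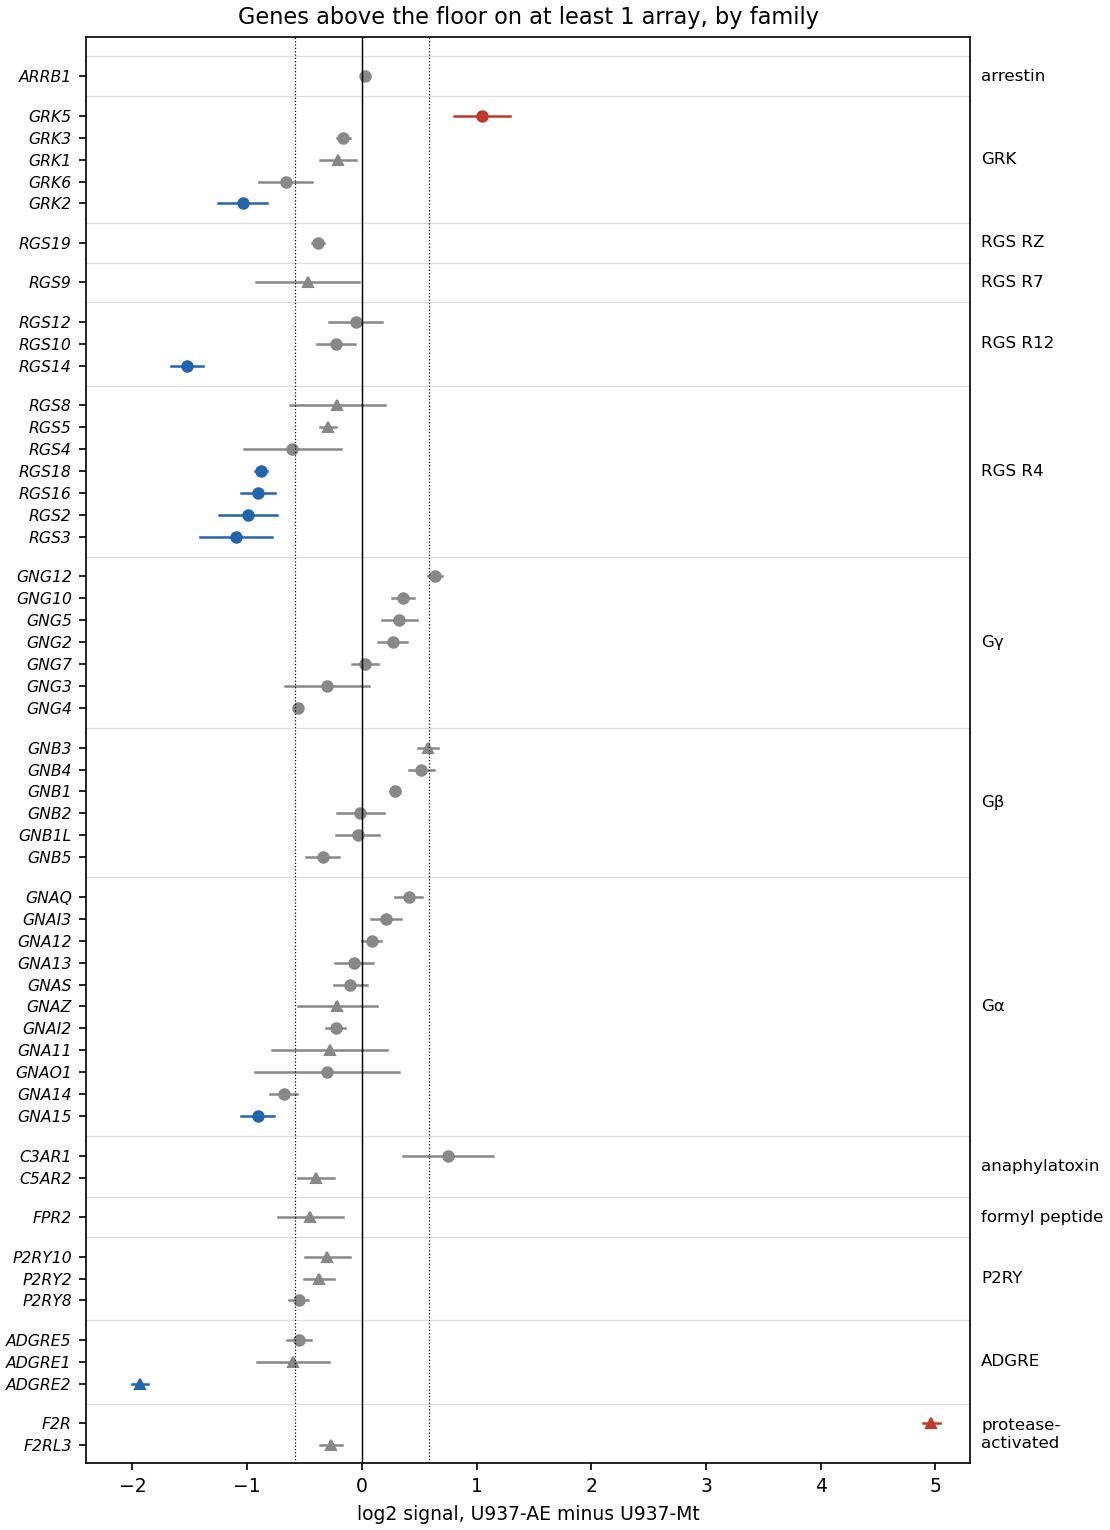
Log2 signal in U937-AE minus that in U937-Mt for the 53 members above the floor on at least 1 array, by family. Points are the mean of the 4 comparisons between arrays and lines their range, circles are genes that passed the floor on every array and triangles those that did on 1 to 3, red is called higher, blue called lower and grey not called, and dotted lines mark 1.5-fold. F2R stands far to the right at 4.97, and the bright RGS genes lie left of 0.

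Read from their brightest probe sets, the RGS genes differed in 1 direction on the deposited signals. Of 20 RGS genes 5 were called lower and none higher, and all 10 bright ones had a negative log2 difference, with a median of -0.74. Of all genes 4% were called lower, and of the bright ones 6.17%. The median stayed negative under the 3 other scalings, at -0.59 (quantile), -0.47 (same median) and -0.40 (spike-ins), while the number called lower was 5, 1 and 1 and the number of bright RGS genes above 0 was 2, 3 and 3. Of all bright genes 58.3% had a negative difference on the deposited signals. Another 8 RGS genes were below the floor on every array.

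The R4 subfamily, small proteins made of little more than the RGS domain, held 4 of the 5 calls among its 9 genes. RGS18, which is found in platelets and in myeloid and megakaryocytic cells, gave 602.1 and 627.9 in U937-AE, compared with 1113.4 and 1146.0 in U937-Mt. Its copies agreed closely, and it was 1.84-fold lower in U937-AE (1.77 to 1.90). RGS2, which acts mainly on the Gq class, gave 130.7 and 169.9 against 283.2 and 309.0. It was 1.99-fold lower (1.67 to 2.36), and the U937-AE arrays were close to their floors.

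RGS3, which acts on Gi and Gq class subunits, gave 226.7 and 186.2 in U937-AE, compared with 391.1 and 494.5 in U937-Mt and was 2.14-fold lower (1.73 to 2.66). A dimmer RGS3 probe set, below the floor on both U937-AE arrays, gave a log2 difference of -0.45 and was not called. RGS16, which acts on the same classes as RGS3, gave 204.0 and 224.6 against 423.4 and 380.4 and was 1.87-fold lower (1.69 to 2.08). A second RGS16 probe set gave 44.9 and 95.2 against 413.8 and 427.1, with both U937-AE arrays below the floor. It was 3.38-fold lower on the mean of the 4 comparisons (3.19 to 3.57), a size that the floor holds down. It was called lower under the 3 other scalings, whereas the brightest probe set lost its call with the same median or the spike-ins. RGS4 gave 180.1 and 215.2 against 244.5 and 366.7 and was not called, since the U937-Mt copies differed from each other.

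In the R12 subfamily RGS14, a regulator of Gαi that also binds inactive Gαi, gave 307.0 and 263.4 in U937-AE, compared with 803.2 and 831.7 in U937-Mt. It was 2.87-fold lower (2.62 to 3.16). A second probe set gave 182.3 and 221.6 against 550.3 and 469.8 (log2 difference -1.34) and was also called lower. RGS14 kept its call under 17 of the 18 alternative settings, the most of any member. By construction, the 4 settings that leave out an array and the one on the mean of the arrays cannot lose a call. RGS10, the short member of this subfamily, gave 1093.3 and 965.4 against 1139.3 and 1268.6 (log2 difference -0.23). Its other probe sets went the other way, at 0.16 and 0.22, and were not called. The one at 0.22 was below the floor on both U937-Mt arrays. RGS10 is next to GRK5 on chromosome 10.

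RGS12, a large scaffold of the same subfamily, gave 624.3 and 497.2 in U937-AE, compared with 605.5 and 552.4 in U937-Mt, with overlapping lines. Of its 10 probe sets 7 were above the floor somewhere, and 1 of these gave 69.1 and 89.7 against 324.3 and 396.0. That probe set was at least 2.88-fold lower and was called lower under the 3 other scalings, while the other measured probe sets had log2 differences from -0.49 to 0.58. RGS12 was looked at by probe set after its values were seen, and which transcript each reads was not analysed here. RGS19, of the RZ subfamily, gave 2323.6 and 2169.8 against 2927.8 and 2921.9 (log2 difference -0.38, not called). RGS9, of the R7 subfamily, gave 103.8 and 144.4 against 99.3 and 226.0. RGS22 was below the floor on every array.

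RGS18, RGS1, RGS13 and RGS2 follow each other on chromosome 1, with 1 other protein-coding gene between RGS18 and RGS1. The outer ones were called lower, and RGS1 and RGS13 were below the floor on all arrays. RGS16 and RGS8 are also neighbours on chromosome 1, and RGS8 was near the floor (log2 difference -0.21).

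The sequences before the start sites of called RGS genes and of GRK5 are shown because AML1, whose DNA-binding part the fusion keeps, binds the core TGTGGT or TGCGGT, and because E-box proteins such as HEB bind CAGCTG or CAGGTG. The 250 bases upstream of each start, from RefSeq (GRCh38.p14), are printed from 5′ to 3′ in the direction of the gene, with matches on either strand in capitals. The regions are chr1:192158212-192158461 (plus strand) for RGS18, chr5:177357674-177357923 (plus) for RGS14, chr1:192808789-192809038 (plus) for RGS2, chr1:182604390-182604639 (minus) for RGS16 and chr10:119207321-119207570 (plus) for GRK5.
RGS18: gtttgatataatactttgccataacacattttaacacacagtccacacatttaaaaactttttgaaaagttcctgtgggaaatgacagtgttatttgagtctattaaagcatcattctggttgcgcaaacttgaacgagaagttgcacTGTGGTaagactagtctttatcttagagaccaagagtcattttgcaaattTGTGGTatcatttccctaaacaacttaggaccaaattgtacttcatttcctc
RGS14: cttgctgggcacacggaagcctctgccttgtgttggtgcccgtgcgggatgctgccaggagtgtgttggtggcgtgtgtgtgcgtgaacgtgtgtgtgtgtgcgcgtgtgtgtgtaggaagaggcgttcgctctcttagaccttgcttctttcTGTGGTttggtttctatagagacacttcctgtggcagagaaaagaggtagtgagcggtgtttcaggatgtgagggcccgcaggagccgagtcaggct
RGS2: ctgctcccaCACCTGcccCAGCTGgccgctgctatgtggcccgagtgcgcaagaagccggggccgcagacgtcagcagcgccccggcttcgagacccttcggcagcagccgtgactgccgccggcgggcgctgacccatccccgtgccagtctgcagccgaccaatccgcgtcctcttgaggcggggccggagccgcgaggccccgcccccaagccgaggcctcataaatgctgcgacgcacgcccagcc
RGS16: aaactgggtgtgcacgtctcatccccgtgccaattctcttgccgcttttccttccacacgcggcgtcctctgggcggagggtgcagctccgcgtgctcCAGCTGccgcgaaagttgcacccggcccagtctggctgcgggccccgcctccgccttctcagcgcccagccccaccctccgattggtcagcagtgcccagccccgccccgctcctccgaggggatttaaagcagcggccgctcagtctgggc
GRK5: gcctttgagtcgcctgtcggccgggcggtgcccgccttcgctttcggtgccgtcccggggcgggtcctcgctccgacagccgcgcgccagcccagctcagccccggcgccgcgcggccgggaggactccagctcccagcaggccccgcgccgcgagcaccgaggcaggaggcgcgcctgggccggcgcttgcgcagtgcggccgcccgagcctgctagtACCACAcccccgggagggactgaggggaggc

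RGS18 held the core TGTGGT at 2 places, starting 102 and 52 bases before the start site, and RGS14 held it once, 97 bases before it. GRK5 held it once on the opposite strand. RGS2 held an E-box of each form and RGS16 one CAGCTG. RGS3 and GRK2 held neither motif in the same window and are not printed. Of the 6 members called lower with a promoter in the RefSeq set, 2 held an AML1 core and 2 an E-box form, too few for a share to be read. Among the 67 members with a promoter in the RefSeq set, an AML1 core stood in 12 (17.9%), against 16.3% of all 35116 promoters, and an E-box form in 19 (28.4%), against 28.7%. The shares of the 67 members are near those of all promoters, and a match is a description of letters, not of binding. ADGRE2, F2R and GNA15 were not in that set.

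The receptor kinases gave calls in opposite directions. GRK2, which phosphorylates many active receptors and binds Gβγ, gave 1579.3 and 1747.7 in U937-AE, compared with 3756.6 and 3096.9 in U937-Mt. It was 2.05-fold lower (1.77 to 2.38). A second measured probe set gave 1435.1 and 1786.3 against 1922.2 and 1747.0, with overlapping lines and a log2 difference of -0.19, so the lower GRK2 signal rests on 1 of 2 probe sets.

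GRK5, a kinase that associates with the membrane by itself, gave 464.4 and 466.9 in U937-AE, compared with 266.4 and 190.2 in U937-Mt and was 2.07-fold higher (1.74 to 2.45). The other 3 probe sets of GRK5 gave log2 differences of -0.04, -0.02 and -0.24 and were not called. The one at -0.02 was above the floor on 1 array only, so its value is largely set by the floors. The call rests on 1 of 4 probe sets, or on 1 of the 3 above the floor on every array. With _x_at and _s_at probe sets left out the log2 difference of GRK5 was -0.04. Under a floor at the 75th percentile, which GRK5 passed on 2 arrays, it was near that of a gene below this floor everywhere.

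GRK6, a kinase of hematopoietic cells, gave 847.9 and 1001.2 in U937-AE, compared with 1355.9 and 1574.1 in U937-Mt. All 4 of its probe sets had a negative log2 difference (-0.93 to -0.37), the brightest one being -0.67, and none was called. ARRB1, which encodes β-arrestin 1, gave 2401.3 and 2394.5 against 2380.0 and 2332.2, a log2 difference of 0.03. Its 7 probe sets ranged from -0.65 to 0.18, and 1 was called lower on the deposited signals (451.1 and 454.8 against 684.1 and 736.2) but under none of the 3 other scalings.

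**Figure D3:**
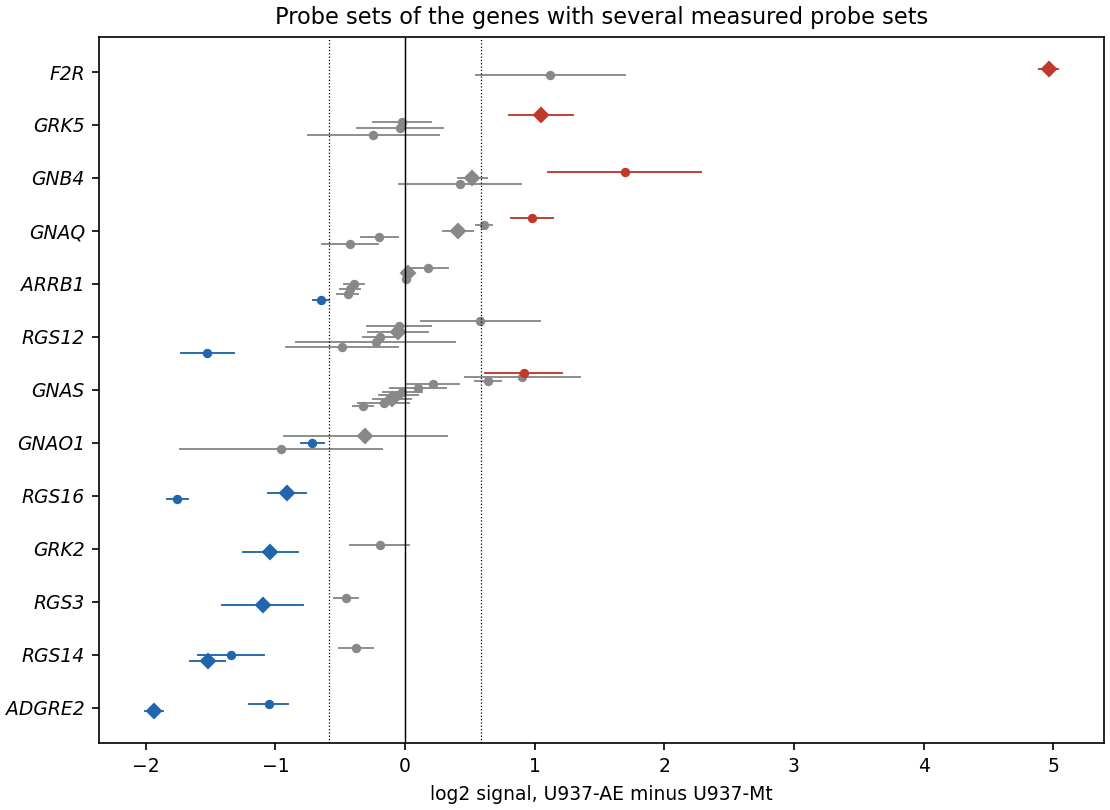
Log2 signal in U937-AE minus that in U937-Mt of every measured probe set (above the floor on at least 1 array) for the 13 members with several measured probe sets of which at least 1 was called. Diamonds mark the probe set that stands for the gene, points are the mean of the 4 comparisons and lines their range, red is called higher, blue called lower and grey not called, and dotted lines mark 1.5-fold. The called probe sets of RGS14, RGS16 and ADGRE2 lie on the same side, whereas GNAQ has 1 called probe set above 0 and 2 uncalled ones below it.

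Over all 205 member probe sets 5 were called higher and 14 lower (2.44% and 6.83%), beside 1.52% and 3.07% of the 41097 probe sets with 1 symbol. Among the called genes RGS14, RGS16 and ADGRE2 had a second probe set called in the same direction. F2R, GRK2, GRK5 and RGS3 had other measured probe sets that were not called, and GNA15, RGS2 and RGS18 had 1 probe set each.

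The effectors downstream of the subunits were read from a list of 36 genes outside the rule, of which 33 had a value. Here 2 were called higher, 4 lower and 27 were not called, beside the 1.7% and 4% of all genes called higher and lower. ARHGEF12, an exchange factor for RhoA that Gα12 and Gα13 activate, gave 2717.2 and 2627.8 in U937-AE, compared with 776.9 and 789.8 in U937-Mt (log2 difference 1.77), the largest positive difference of the list. ADCY7, an adenylyl cyclase of hematopoietic cells that Gβγ can stimulate, gave 299.2 and 250.4 against 1694.8 and 1654.3 (log2 difference -2.61). Both kept their calls under the 3 other scalings.

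The adenylyl cyclases, which make cyclic AMP, thus differed in both directions. ADCY3 gave 913.6 and 837.9 in U937-AE, compared with 434.4 and 507.2 in U937-Mt (log2 difference 0.90). ADCY9 gave 209.9 and 227.4 against 406.5 and 581.5 (log2 difference -1.15), and ADCY5 gave 8.4 and 56.4 against 240.0 and 258.4, with both U937-AE arrays below the floor. ADCY3 and ADCY5 kept their calls under the 3 other scalings, and ADCY9 lost its call with the spike-ins. PREX1, an exchange factor for Rac that Gβγ activates, gave 383.5 and 274.9 against 652.9 and 671.4 (log2 difference -1.03), a call lost with the arrays set to the same median or to the spike-ins. PLCB1, a phospholipase Cβ that the GNAQ product activates, gave 2982.8 and 2968.5 against 1854.1 and 2108.9 (log2 difference 0.59) and was not called. It was named for its link to GNAQ after its values were seen.

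The proteases and partners of the protease-activated receptors were read from a list of 21 genes, of which 20 had a value, with 1 called higher, 3 lower and 16 not called, beside the same shares of all genes. F2, which encodes prothrombin, and F3, tissue factor, were below the floor on all arrays. CTSG, the neutrophil protease cathepsin G that can cut these receptors, gave 1063.6 and 1208.5 in U937-AE, compared with 9913.5 and 8690.2 in U937-Mt (log2 difference -3.03). ELANE, neutrophil elastase, gave 45.5 and 10.9 against 763.7 and 759.6, with both U937-AE arrays below the floor. Both kept their calls under the 3 other scalings.

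PROCR, the endothelial protein C receptor through which activated protein C reaches PAR1, gave 260.5 and 222.1 in U937-AE, compared with 615.4 and 451.2 in U937-Mt (log2 difference -1.13), a call lost under each of the 3 other scalings. PLAU, urokinase, gave 481.4 and 556.3 against 238.2 and 292.2 (log2 difference 0.97) and kept its call under them. F2 and F3, like PLCB1, are named beside the called genes because F2R is a thrombin receptor.

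Markers of cell types were read on the same arrays. Of 7 monocytic markers with a value MPO, LYZ and SPI1 were called lower and none higher, CD14 and FCGR1A did not reach the floor on any array, and CD4 and CSF1R were not called. The summed signal of the list was 5933.7 to 6594.5 in U937-AE, compared with 21136.1 to 22517.8 in U937-Mt. Most of that gap was MPO, and without it the sums were 4375.8 to 4696.5 and 6401.1 to 6545.3. None of 7 platelet and megakaryocyte, 4 erythroid, 4 B cell and 7 endothelial and fibroblast markers was called. GP9, PPBP and VWF did not reach it either, and the platelet list summed to 746.3 and 757.6 in U937-AE, compared with 712.7 to 843.2 in U937-Mt. Of 8 T and NK cell markers NKG7 was called lower, and that list summed to 594.5 and 785.6 against 1524.8 and 1738.6. Without NKG7 its sums overlapped between the lines, at 570.4 and 658.5 against 642.0 and 730.4. The part of the lower monocytic markers in the lower RGS, ADGRE2 and GNA15 signals was not tested.

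Between the copies of a pool 1 member in U937-AE and 4 in U937-Mt were more than 1.5-fold apart, against 16 to 20 members in single comparisons of the lines. The matching shares over all genes were not computed, so these counts show nothing particular to the members. The hybridization spike-ins, RNAs added in equal amount before hybridization, had 1.27-fold more signal in U937-Mt, beside the 1.21-fold higher floors.

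**Figure D4:**
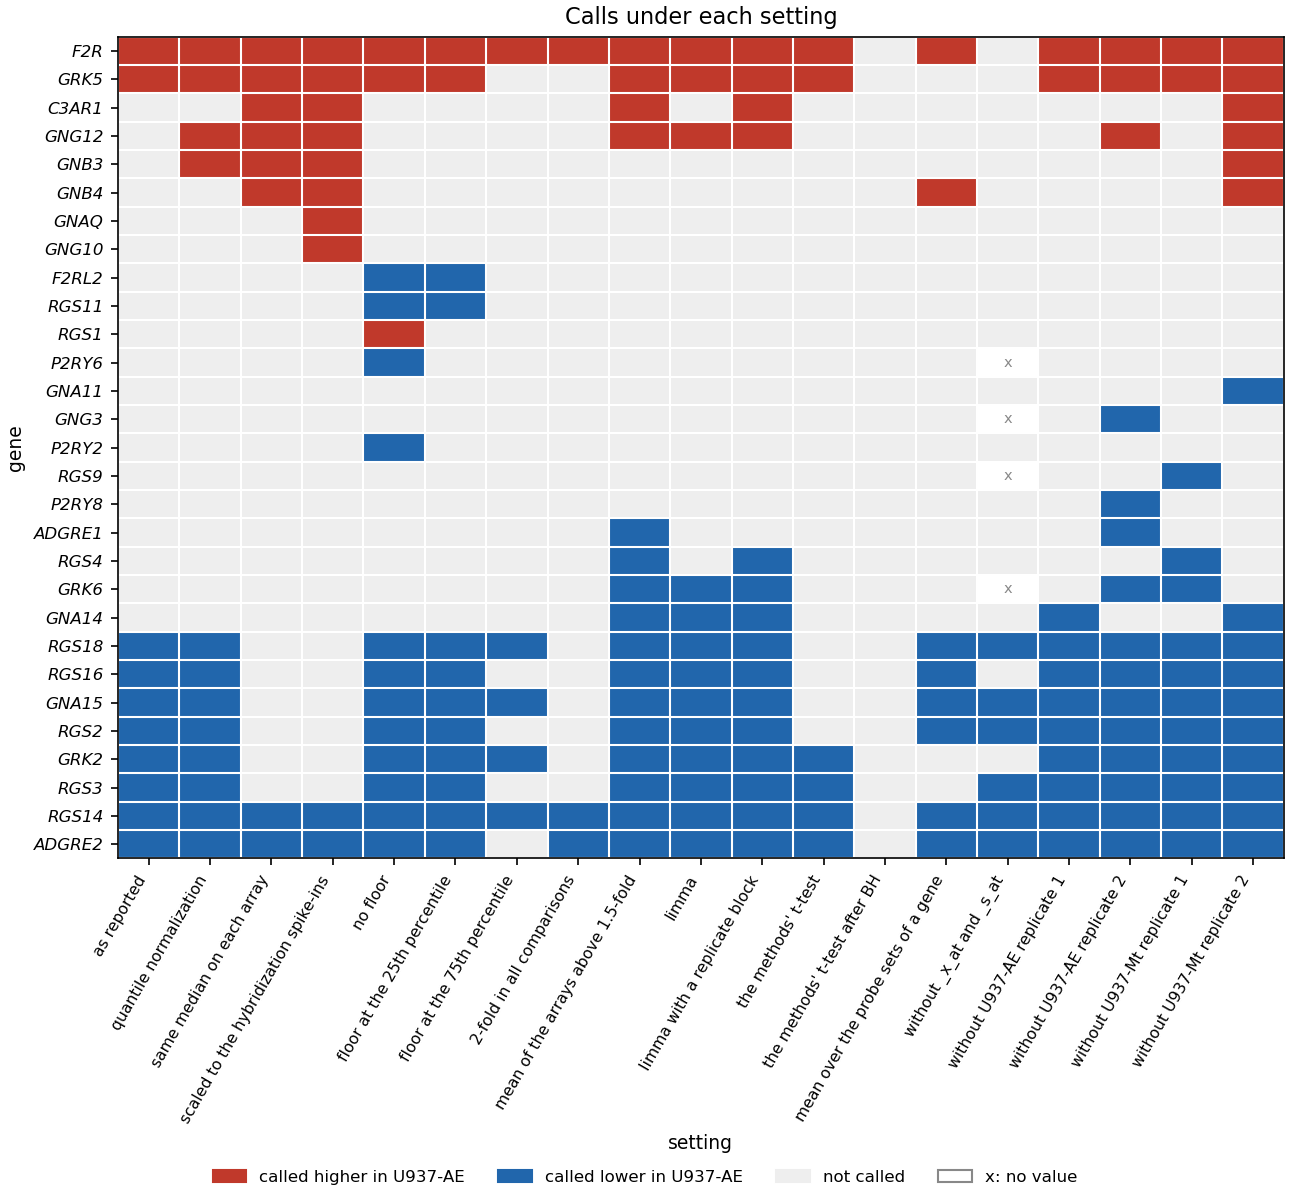
Call of each member that was called under at least 1 setting, for the reported setting and the 18 alternatives (columns). Red is called higher in U937-AE, blue called lower, grey not called and x no value. F2R, ADGRE2 and RGS14 are called in nearly every column, and the columns of the same median and of the spike-ins hold 6 and 8 higher calls. By construction, the 4 columns that leave out an array and the column of the mean cannot lose a call.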

How the data were processed

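RNA from both cell lines was measured on 4 arrays, 2 copies for each pool of 3 extractions. The authors deposited 1 linear signal intensity per probe set and array, made with GCOS at default settings (version not given in the sources used here), which corrects the background, combines the probes and scales each array. The table has 54675 probe sets, 62 of them controls. Symbols came from the platform annotation for 41097 probe sets with 1 symbol, of which 41043 were updated through the gene identifier, and gave 19775 genes.

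Intensities under the 50th percentile of their array (controls left out) were set to it before log2 was taken (Python 3.11.15, numpy 2.4.6, pandas 2.3.3). The brightest probe set stood for a gene, and calls needed 1.5-fold in all 4 comparisons. This rule gives no p-value, because each line is 1 pool. As alternatives, limma 3.58.1 in R 4.3.3 and the methods' t-test (scipy 1.17.1) compared the lines with p-values over array copies only, which leave out the spread between pools. The other alternatives changed the scaling, the floor, the fold, the probe set and the arrays used.

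Named are the called members, members called under at least 3 alternatives, the protease-activated receptors, Gα genes above the floor, and the brightest member of each other family, and from the lists of effectors, proteases and markers the called genes. Outside this rule, genes below the floor, neighbours on a chromosome, markers that define a cell type, RGS12, GNB1L, GNB2, PLCB1, F2 and F3 were named after their values were seen. The members, lists and alternatives were chosen with earlier results of these data known. The number of arrays limits the precision.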

Additional observations from a re-analysis of the deposited data

How the results depend on the processing

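The 2 higher and 8 lower calls among the members were recomputed under 18 alternatives. Members called higher were 4 after quantile normalization, 6 with the same median (2 lower), 8 with the spike-ins (2 lower), 1 with the floor at the 75th percentile (4 lower), 1 when 2-fold was required (2 lower) and 4 when the mean of the arrays was above 1.5-fold. When the suffixes _x_at and _s_at were left out, 0 of 73 members with a value were called higher on the fold rule and 6 lower, and F2R, read from its other probe set, gave a log2 difference of 1.12. The methods' t-test at an unadjusted p under 0.05 and above 2-fold called 2 higher and 4 lower, and after Benjamini-Hochberg adjustment it called 0 and 0 members and 0 genes, while limma called 3 and 10. Leaving out 1 array gave 2 to 6 higher and 9 to 12 lower, and the 6 came without U937-Mt replicate 2, which added C3AR1, GNB3, GNB4 and GNG12. GRK5 gave -0.0379 without those suffixes, from another probe set. With the floor at the 75th percentile it gave -0.0925, where a gene below this floor on all arrays has -0.1032 by construction, so that its sign there is set by the floor. Leaving out 1 array leaves fewer comparisons that must pass, and the rule on the mean is looser as well. Both can therefore add calls but not lose them. For the other changes the cause was not tested. The correlation of the deviations of same-numbered arrays was 0.0519. In both lines array 1 had the lower floor (119.5 against 129.7 and 146.8 against 153.6). Whether same-numbered arrays share an effect was not tested. With the array number as a replicate block limma called 4 higher and 11 lower.

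Over all genes the 336 higher and 791 lower calls became 373 and 611 (quantile), 911 and 387 (same median), 1374 and 312 (spike-ins), 577 and 1687 (no floor), 455 and 1345 (floor at the 25th percentile), 240 and 373 (75th percentile), 98 and 263 (2-fold), 624 and 1806 (mean of the arrays), 513 and 1142 (limma), 570 and 1433 (limma with the block), 131 and 385 (t-test), 186 and 580 (mean over probe sets), 264 and 605 (without the suffixes), and 456 to 557 and 1137 to 1591 without 1 array. Signals near the floor, as in RGS2 and ADGRE2 in U937-AE, set a limit to how large a lower value can be read.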
